A study of Bos taurus and Mus musculus with 16 samples.

Results

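The 9 genes described here encode the 3 angiomotins (Amot, Amotl1, Amotl2), 2 LIM proteins of the Ajuba family (Ajuba, Limd1) and 4 components of the apical Par complex (Pard3, Pard6b, Prkci, Prkcz). They were found by symbol, with letter case ignored, and all 9 had a row in each species' table, among 16655 mouse and 14852 bovine genes. All 9 passed the filter on low values in mouse, a mean of at least 10 normalized reads, and 6 passed it in cattle. AJUBA, LIMD1 and PARD6B did not. The samples were preimplantation embryos grown from zygotes injected with mRNA of BE3, which couples a cytidine deaminase to a Cas9 nickase and changes C to T. Edited embryos also received a mix of single guide RNAs against Tead4 (mouse) or TEAD4 (cattle), and control embryos received BE3 mRNA with no guide RNA, so any effect of guide RNA as such cannot be told apart from that of editing. There were 2 edited and 2 control samples of mouse morulae at day 3.25 and 6 edited and 6 control samples of bovine blastocysts at day 7.0. Strain, breed, the number of embryos per sample and the share of edited alleles are not stated in the labels. Nor do they say whether samples came from separate injections, so p-values measure only the sample-to-sample spread, part of which may be technical.

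Angiomotins are scaffolds at cell junctions that bind NF2 and the LATS kinases and hold YAP1 and WWTR1 (TAZ) outside the nucleus. When YAP1 or WWTR1 does enter the nucleus, it binds TEAD factors, TEAD4 among them, and turns on trophectoderm genes. In the outer cells of the mouse morula the apical Par complex, made of the scaffold PARD3, the adaptor PARD6 and an atypical protein kinase C (PRKCI or PRKCZ), draws AMOT away from the junctions, so that Hippo signalling is low there. In inner cells, which lack an apical domain, LATS kinases phosphorylate AMOT at the junctions and signalling stays on. Ajuba family LIM proteins bind LATS kinases at junctions and restrain them in cultured mammalian cells.

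The mouse angiomotins share the site at which LATS kinases phosphorylate them, and the coding sequence around it is shown because each paralogue's value rests on telling such related stretches apart. The capitals mark the codons of the phosphorylation site, and each stretch lies within 1 coding exon (GENCODE M21 transcripts, GRCm38).
Amot, chrX:145487094-145487147, minus strand: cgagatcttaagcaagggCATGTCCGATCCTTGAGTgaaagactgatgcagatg
Amotl1, chr9:14593071-14593124, minus strand: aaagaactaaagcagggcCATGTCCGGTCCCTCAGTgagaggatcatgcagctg
Amotl2, chr9:102720587-102720640, plus strand: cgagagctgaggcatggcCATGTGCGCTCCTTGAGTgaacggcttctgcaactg
Over these 54 bases Amot and Amotl2 differed at 13 positions, Amot and Amotl1 at 14, and Amotl1 and Amotl2 at 16. The longest run of identical bases between any transcripts of 2 angiomotins was 20 nucleotides (Amot and Amotl1), and it was 14 for Amot and Amotl2 and 17 for Amotl1 and Amotl2. Between Ajuba and Limd1 the longest run was the 23-base stretch gagtgctaccactgtgaggactg, and between the kinase genes Prkci and Prkcz it was the 22-base stretch catgtgtttgagcaggcgtcca. The sources used here give no read length. No exon of another annotated mouse gene overlapped an exon of any of the 9 genes.

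Reads assigned to genes numbered 4386305 and 6109425 in the edited and 4187826 and 3642907 in the control libraries of mouse. The bovine libraries were shallower, at 817329 to 2259064 reads in edited and 934078 to 2501592 in control samples. Values are reads divided by the authors' DESeq2 size factors, and 3 reads were worth 2.13 to 3.79 of these normalized reads in mouse and 1.71 to 5.56 in cattle. The targeted gene Tead4 stood at 57.2 and 76.5 normalized reads in edited and at 458 and 519 in control morulae. In blastocysts TEAD4 ranged from 22.6 to 65.6 (median 37.5) in the 6 edited and from 61.2 to 125 (median 92.9) in the 6 control samples. The bovine groups overlapped for TEAD4, by 1 edited sample, and its limma adjusted p was 0.235 (log2 fold change -1.25 ± 0.25, SE), against an exact permutation p of 0.00433 for this gene alone (two-sided) and an adjusted p of 0.0142 in the authors' deposited table. The 8 trophectoderm markers with values in each species summed to 1982 to 2179 normalized reads in edited and 6220 to 7197 in control morulae. In blastocysts they summed to 8461 to 21494 in edited and 11117 to 21448 in control samples. The keratin genes Krt8 and Krt18 made up most of the mouse control sums and of the bovine sums. Their means were 857 and 164 in edited and 2835 and 2079 in control morulae. In blastocysts the keratin means were 10135 and 5090 in edited and 9056 and 4791 in control samples. In mouse 4 of the 7 tested markers fell (Gata3, Krt8, Krt18 and Cdx2), though Krt18 missed the threshold under robust limma (adjusted p = 0.0552), as did Cdx2 with control library 1 (0.0576) or 2 (0.0682) left out. Of the 3 tested trophectoderm markers that did not pass, Tfap2a had a log2 fold change of -2.12, Eomes 0.46 and Tfap2c 0.18. Over all tested mouse genes 8.38% fell and 6.92% rose. Krt18 lies in the shortest of 10 length groups of mouse genes, whose median log2 fold change was -0.42. Elf5 in mouse and Eomes in cattle had no values under these symbols. The 6 inner cell mass markers summed to 3250 to 3767 in edited and 2614 to 3120 in control morulae, and to 413 to 919 in edited and 536 to 859 in control blastocysts. In blastocysts POU5F1 had the highest mean of these markers (310 in edited and 366 in control samples). Whether the markers are confined to the inner cell mass in these blastocysts was not tested. In mouse 3 of these 6 rose, namely Pou5f1 (log2 fold change 1.40), Tdgf1 (1.35) and Esrrb (0.84), and Nanog, which did not pass, had -0.58. Esrrb missed the threshold with edited library 1 (adjusted p = 0.251), control library 1 (0.289) or control library 2 (0.0699) left out. Of 8 cumulus cell markers 1 had values in mouse (Foxl2, at 0 to 5.72) and 4 in cattle, none above the filter on low values. Blood cell markers summed to 4.24 to 20.4 in edited and 2.63 to 20.2 in control blastocysts, and of 6 sperm markers 0 had values in mouse and 2 in cattle (0 to 14.0 in edited and 0 to 19.9 in control samples).

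Among the angiomotins of the mouse morula, Amotl2 had the largest difference, Amot a smaller one, and Amotl1 none that passed the test. Amotl2 (chromosome 9, 102716672 to 102733418, plus strand, GRCm38), which in cultured cells is also a transcriptional target of YAP1 and TEAD factors, stood at 13.3 and 6.38 normalized reads in edited morulae (14 and 9 reads) and at 228 and 311 in control morulae (204 and 246 reads). Both edited samples were far below both controls. Amotl2 thus fell to 3.66% of its control mean, and the fitted log2 fold change was -4.70 ± 0.39 (SE, n = 2 in each group, 95% interval -5.49 to -3.91, limma adjusted p = 3.01e-09). Amot (chromosome X, 145446425 to 145505181, minus strand), the founding member, which binds actin through its long isoform, had 126 and 111 normalized reads in edited and 183 and 230.2 in control morulae. The groups did not overlap, and Amot fell to 57.4% of the control mean, with a log2 fold change of -0.79 ± 0.25 (limma adjusted p = 0.0341). The adjusted p for Amot was 0.115 when control library 1 was left out and 0.346 when control library 2 was, so either omission ended the call. The call also ended with every sample scaled to the same total (0.0758), with no filter on low values (0.0549) and under DESeq2 (0.0646). The authors' deposited table listed Amot at an adjusted p of 0.0606.

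Amotl1 (chromosome 9, 14541966 to 14645056, minus strand), the third angiomotin, had 30.5 and 3.54 normalized reads in edited morulae (32 and 5 reads) and 21.2 and 1.26 in control morulae (19 reads and 1 read). In each group library 1 was high and library 2 was low, so the spread within groups was larger than the difference between them (log2 fold change 0.75 ± 0.97, limma adjusted p = 0.655). The fold change was -0.89 with control library 2 left out and 2.40 with control library 1 left out. Among 9 blood cell markers, 2 had values in mouse, Hba-a1 and Cd68, and together they summed to 88.6 to 165 in edited and 64.5 to 74.9 in control samples. Of these, the haemoglobin gene Hba-a1 had 36.2 and 4.96 normalized reads in edited libraries 1 and 2 and 10.1 and 0 in control libraries 1 and 2, the same order of libraries as Amotl1. Cd68, the higher of these markers, had 129 and 83.6 in edited and 64.8 and 64.5 in control libraries 1 and 2. That is a different order of libraries, with nearly equal control values. The likeness of Hba-a1 to Amotl1 was seen after the values were known. The part of blood cell RNA in the Amotl1 values was not tested.

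**Figure D1:**
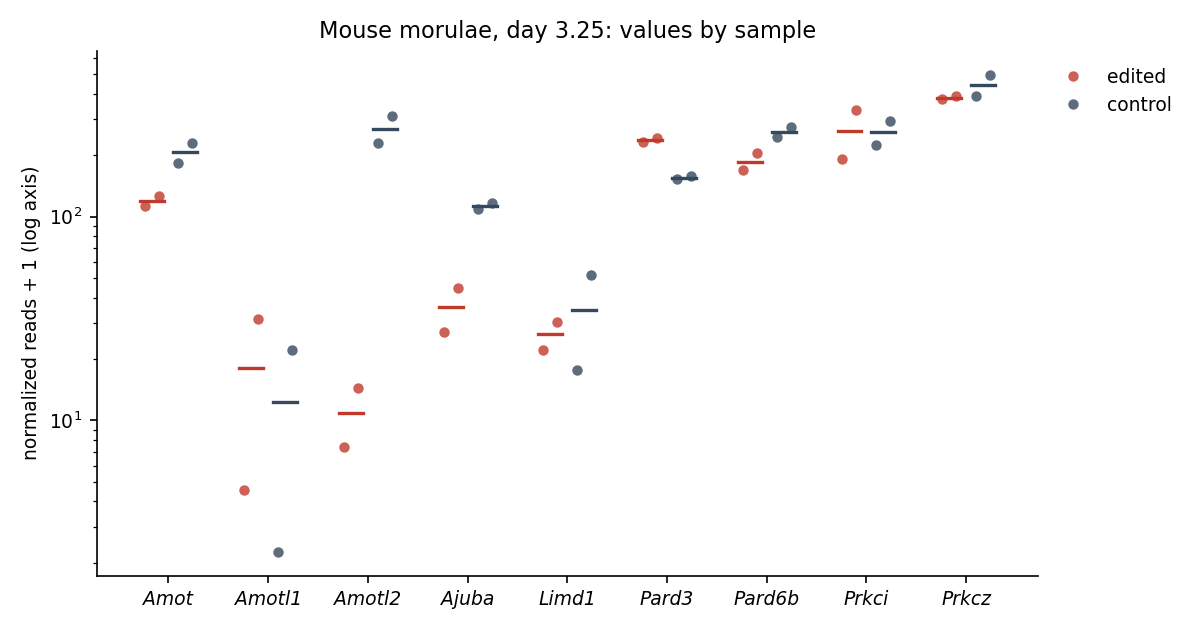
Normalized reads (plus 1, log axis) of the 9 genes in each mouse library, with edited samples in red left of control samples in dark blue; bars are group means, n = 2 per group. The Amotl2 samples sit at 13.3 and 6.38 in edited and 228 and 311 in control morulae, while the Prkci groups overlap.

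Because reads grow with transcript length, the 3 angiomotins were set side by side as normalized reads per kilobase of annotated exon. Amotl2 made up 10.5% and 6.94% of the angiomotin total in the edited samples, and 60.2% and 64.3% in the control samples. Amot made up 74.4% and 90.6% of it in the edited samples, and 36.3% and 35.6% in the control samples. The total itself was 20.1 and 14.6 per kilobase in edited and 60.2 and 77.0 in control morulae, so both edited totals were below both control totals. These shares come from the same reads as the tests above. As the samples are whole embryos, fewer cells of a type and less RNA per cell cannot be told apart in any of these values. The trophectoderm marker sums given above, mostly keratin reads in control libraries, were lower in the same edited libraries. The part of that difference in the Amotl2 and Amot values was not tested.

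**Figure D2:**
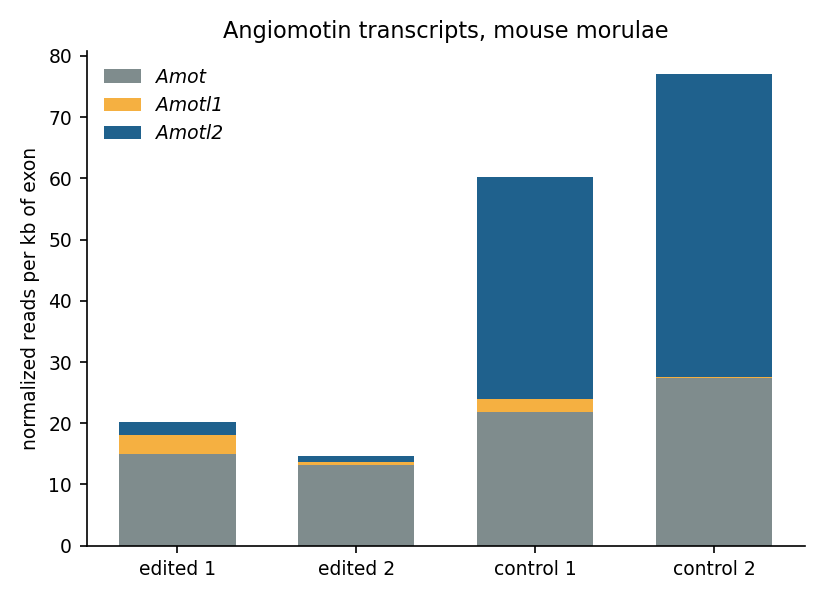
Normalized reads per kilobase of exon for Amot, Amotl1 and Amotl2, stacked for each mouse library, edited libraries left of control libraries. Amotl2 is the largest part of both control bars (60.2% and 64.3%), and Amot is the largest part of both edited bars (74.4% and 90.6%).

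Of the Ajuba family genes, Ajuba was lower in edited morulae and Limd1 did not pass. Ajuba (chromosome 14, 54567472 to 54577558, minus strand) had 43.9 and 26.2 normalized reads in edited and 108 and 115 in control morulae. All edited values were below all control values. Ajuba fell to 31.4% of the control mean (log2 fold change -1.69 ± 0.35, 95% interval -2.40 to -0.97, limma adjusted p = 0.00151), and it passed in each of the 14 alternative analyses, with adjusted p up to 0.0411. Limd1 (chromosome 9, 123478706 to 123521552, plus strand), which encodes a related LIM protein, had 29.6 and 21.3 normalized reads in edited and 16.8 and 50.6 in control morulae. Both edited values lay between the control values, and the log2 fold change of -0.21 ± 0.51 (95% interval -1.26 to 0.83, limma adjusted p = 0.821) leaves room for more than a halving and for a rise. Leaving out control library 2 made it 0.55.

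None of the 4 genes of the apical Par complex passed in mouse with limma on the deposited values. Still, 2 of them, Pard3 and Pard6b, had an unadjusted limma p under 0.05, a level reached by 28.6% of all tested genes. Pard3 (chromosome 8, 127063893 to 127612286, plus strand), the scaffold that brings PARD6 and the kinase to the cortex, had 233 and 243 normalized reads in edited and 158 and 152 in control morulae. The edited samples were higher, with a log2 fold change of 0.62 ± 0.24 (limma adjusted p = 0.0757). With every sample scaled to the same total, a change that moved the median of all genes to 0.12, Pard3 passed at 0.74 (adjusted p = 0.0299). Pard6b (chromosome 2, 168081004 to 168101203, plus strand), the PARD6 isoform required for the mouse trophectoderm epithelium, had 168 and 203 in edited and 276 and 244 in control morulae (log2 fold change -0.49 ± 0.23, adjusted p = 0.162). Here the edited samples were the lower ones, a sign opposite to that of Pard3. Neither gene passed with the authors' size factors, so no opposite response is concluded.

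The 2 atypical kinase genes differed less. Prkcz (chromosome 4, 155260129 to 155361361, minus strand) had 377 and 389.8 normalized reads in edited and 497 and 391 in control morulae, so that the lower control value was next to the edited ones (log2 fold change -0.20 ± 0.20, adjusted p = 0.555). Prkci (chromosome 3, 30995747 to 31052959, plus strand) had 191 and 333 in edited and 223 and 295 in control morulae, with overlapping groups. Its log2 fold change of -0.03 ± 0.25 had a 95% interval of -0.54 to 0.49, and its sign turned with the scaling (0.10 with equal totals).

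In all, 3 of the 9 genes were called in mouse, each lower in edited morulae, where 15.3% of 11386 tested genes were called, 8.38% lower and 6.92% higher. Groups did not overlap for 6 of the 9, with the edited samples lower for 5 of them and higher for Pard3. Among all tested genes 57.8% did not overlap, 29.2% with the edited samples lower and 28.6% with them higher, so the count without overlap was close to that background. The median log2 fold change was -0.21 over the 9 genes and -0.0049 over all tested genes.

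Per kilobase of exon, Amotl2 moved farthest in the order of the 9 levels, being 9th in edited and 4th in control morulae. Pard3 moved next farthest, being 4th in edited and 7th in control morulae. In edited morulae Prkcz (60.7), Pard6b (54.6) and Prkci (47.2) were highest, with overlapping samples. Pard3 (16.4), Amot (14.1), Ajuba (9.61) and Limd1 (4.22) followed without overlap between neighbours. Amotl1 (1.69) and Amotl2 (1.57) were lowest and overlapped each other. In control morulae Pard6b (76.5) and Prkcz (70.3) overlapped at the top, followed by Prkci (46.7) and Amotl2 (42.9), which overlapped too. Ajuba (30.6), Amot (24.6), Pard3 (10.7), Limd1 (5.60) and Amotl1 (1.12) came next with no overlap between neighbours. These levels depend on the annotated exons, with all isoforms united.

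Other polarity and cortex genes were taken from 7 lists of 64 genes with values in mouse, of which 58 were tested. In mouse 9 of them fell and 3 rose (limma), where 8.38% of all tested genes fell and 6.92% rose, and 24 had an unadjusted p under 0.05, where 28.6% of all tested genes did. Their median log2 fold change was -0.17. Of 5 tested Par complex relatives 1 fell, the small GTPase gene Cdc42, which binds PARD6 and activates the complex (1500 and 2023 normalized reads in edited and 2444 and 2684 in control morulae, log2 fold change -0.56 ± 0.17, adjusted p = 0.0275). Leaving out edited library 1, control library 1 or control library 2 raised the adjusted p of Cdc42 to 0.210, 0.152 and 0.280, and equal totals raised it to 0.0699. Of 4 tested Crumbs complex genes 2 fell. The apical transmembrane protein gene Crb3 had 248 and 235 normalized reads in edited and 476 and 468 in control morulae (log2 fold change -0.97 ± 0.21, adjusted p = 0.00206). It no longer passed with either control library left out (0.0631 for library 1 and 0.0558 for library 2). Crb3 lies in the shortest of 10 length groups of mouse genes, whose median log2 fold change was -0.42. Mpp5 (Pals1), the scaffold that binds Crumbs, had 35.3 and 31.2 normalized reads in edited and 60.3 and 89.8 in control morulae (log2 fold change -1.13 ± 0.37, adjusted p = 0.0388). It missed the threshold with control library 1 (0.0876) or 2 (0.378) left out, with equal totals (0.0683), with no filter (0.0564) and under DESeq2 (0.0942).

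Of the 12 tested basolateral genes 1 fell, the Discs large scaffold gene Dlg3 (22.9 and 19.1 normalized reads in edited and 55.9 and 92.3 in control morulae, log2 fold change -1.73 ± 0.41, limma adjusted p = 0.00479), which did not hold with control library 2 left out (0.168). The list median was 0.0013. Of the 7 apical cortex genes 1 rose, Ezr, which encodes ezrin, the linker of the apical membrane to actin. Ezr had 654 and 698 normalized reads in edited and 371 and 402 in control morulae (log2 fold change 0.81 ± 0.19, adjusted p = 0.00493), and it too depended on each control library (0.114 with library 1 left out, 0.0626 with library 2 left out). The median of that list was -0.49.

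Of the 10 tested genes of RhoA and the cortical myosin 4 fell and 1 rose. The myosin light chain genes Myl12b (-1.13 ± 0.22) and Myl6 (-1.11 ± 0.17) fell in every fit that left out 1 library, with limma adjusted p up to 0.0328 and 0.0137. Myl12a (-0.81) and the heavy chain gene Myh10 (-0.87) also fell, but not with control library 2 left out (0.119 and 0.0747), nor, for Myh10, with control library 1 left out (0.0706). The small GTPase gene Rhob rose (279 and 173 normalized reads in edited and 92.7 and 116 in control morulae, log2 fold change 1.07 ± 0.27), but not with edited library 1 (0.110) or control library 1 (0.139) left out. Of 14 angiomotin partners 1 fell and 1 rose. The Hippo kinase gene Lats2 fell (46.7 and 48.9 normalized reads in edited and 111 and 163 in control morulae, log2 fold change -1.47 ± 0.31, adjusted p = 0.00206), with 0.110 when control library 2 was left out. Wwtr1, the gene of TAZ, rose (894 and 641 in edited and 367 and 573 in control morulae, log2 fold change 0.72 ± 0.22, adjusted p = 0.0226), with 0.121 when edited library 1 and 0.465 when control library 1 was left out. Nf2, which encodes the angiomotin-binding protein merlin and was chosen once its values were known, had 345 and 287 in edited and 193 and 214 in control morulae without passing (0.63 ± 0.22, adjusted p = 0.0559). None of the 6 genes in the list of other LIM proteins (Wtip of the Ajuba family, zyxin and its relatives, and Lims1) passed with limma, and 1 had an unadjusted p under 0.05.

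**Figure D3:**
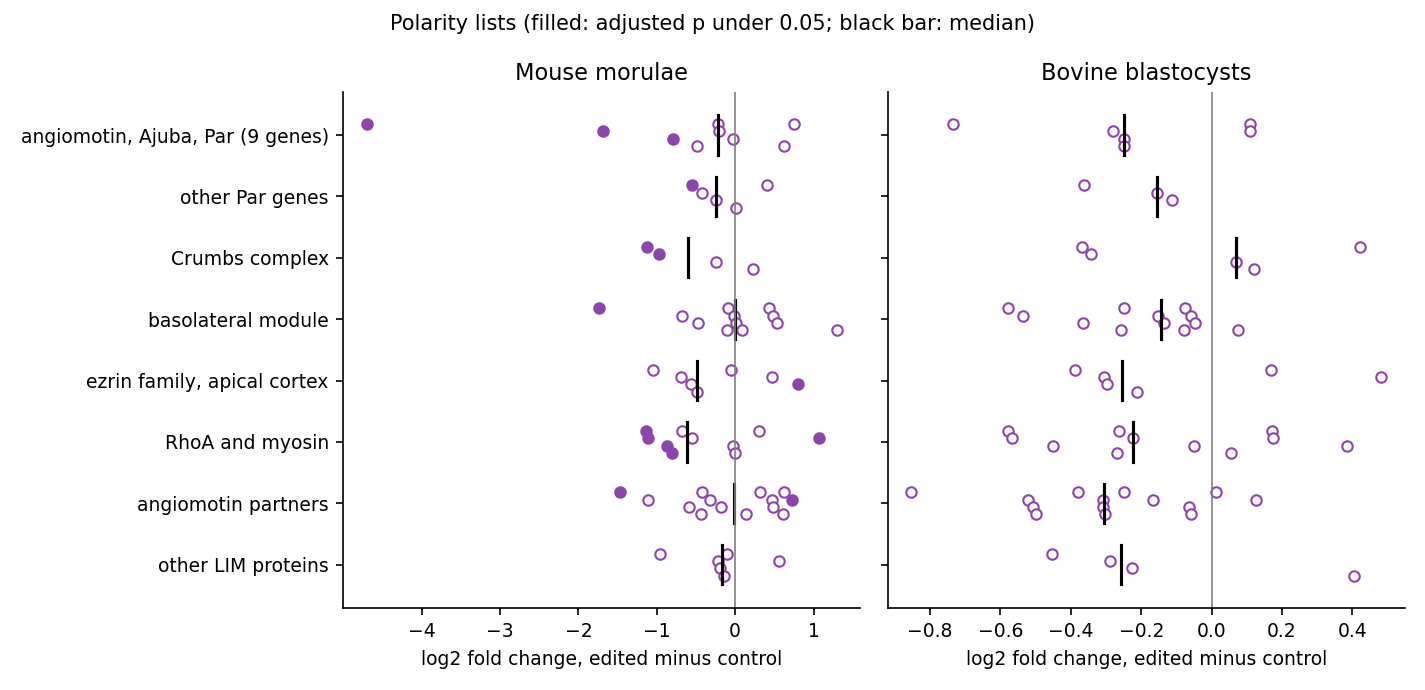
Limma log2 fold changes, edited minus control, of the tested genes of each polarity list in mouse morulae (left, n = 2 per group) and bovine blastocysts (right, n = 6 per group); the horizontal scales differ. Each circle is a gene, filled where its adjusted p over all genes was under 0.05, and black bars are list medians; 12 of 58 listed genes besides the 9 are filled in mouse and 0 of 55 in cattle.

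In bovine blastocysts none of the 6 tested genes was called by limma, edgeR or DESeq2. In that comparison limma called 1 of 8884 genes, 0.0113% (lower in edited samples), and no gene higher. An unadjusted p under 0.05 was reached by 1 of the 6 genes, AMOTL2, against 5.88% of all tested genes. Groups overlapped for each of the 6, as for nearly all tested genes: 0.248% did not overlap, 0.158% with edited samples lower and 0.09% with edited samples higher. AMOTL2 ranged from 5.02 to 20.7 normalized reads (median 12.3) in the 6 edited and from 12.0 to 31.0 (median 20.1) in the 6 control samples. Of the edited samples 3 were below the lowest control sample and 5 were below the control median, while the groups overlapped. The mean was 12.7 ± 5.89 in edited and 20.7 ± 6.94 in control blastocysts (SD, n = 6 each), a log2 fold change of -0.73 ± 0.35 (SE, 95% interval -1.46 to -0.0083, limma adjusted p = 0.792, unadjusted p = 0.0477). The exact permutation test gave p = 0.0584 (two-sided, unadjusted). The value rests on 92 reads in all edited and 123 in all control samples.

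AMOT ranged from 26.9 to 88.3 (median 40.8) in edited and from 26.8 to 105 (median 47.6) in control blastocysts. The lowest samples of both groups were almost equal, and the log2 fold change of -0.25 ± 0.35 (95% interval -0.98 to 0.48) did not pass (limma adjusted p = 0.900). AMOTL1 ranged from 7.41 to 18.4 (median 11.9) in edited and from 10.2 to 19.7 (median 15.5) in control samples, with a log2 fold change of -0.28 ± 0.32 and overlapping groups (adjusted p = 0.872).

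Both Ajuba family genes had few reads in cattle. AJUBA ranged from 3.44 to 10.4 normalized reads (median 6.49) in edited and from 2.92 to 11.8 (median 4.59) in control samples, 44 and 38 reads in all. The groups overlapped over most of their range, and the exact permutation p was 0.524. LIMD1 had 13 reads over the edited and 3 over the control samples and was at 0 in 2 edited and 4 control samples. It had 3 to 4 reads in each of the other 4 edited samples and at most 2 in any control sample (exact permutation p = 0.0866), so no fold is given.

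The Par complex genes of the blastocyst overlapped between groups in each case. PARD3 ranged from 45.7 to 81.3 (median 54.6) in edited and from 53.6 to 104 (median 68.3) in control samples (log2 fold change -0.25 ± 0.22, 95% interval -0.72 to 0.22, limma adjusted p = 0.837). PARD6B, below the filter, ranged from 0 to 12.5 (median 5.69) in edited and from 4.62 to 13.1 (median 8.42) in control samples, with an exact permutation p of 0.264. The kinase gene PRKCI ranged from 156 to 309.8 (median 205) in edited and from 134 to 298 (median 203) in control samples (log2 fold change 0.11 ± 0.22, 95% interval -0.35 to 0.57). PRKCZ ranged from 52.3 to 95.3 (median 74.6) in edited and from 50.8 to 101 (median 63.6) in control samples (log2 fold change 0.11 ± 0.20, 95% interval -0.32 to 0.54). A doubling or halving lay outside the intervals of PRKCI, PRKCZ and PARD3.

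**Figure D4:**
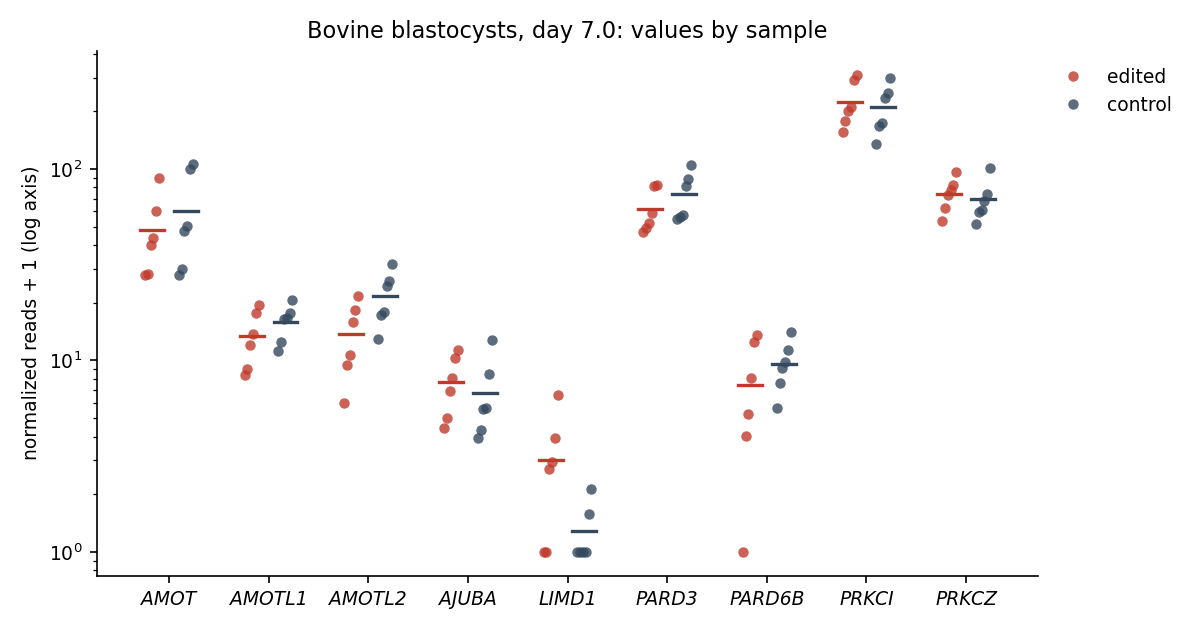
Normalized reads (plus 1, log axis) of the 9 genes in each bovine library, with edited samples in red left of control samples in dark blue; bars are group means, n = 6 per group. The groups overlap for every gene; AMOTL2 has medians of 12.3 in edited and 20.1 in control samples.

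The 7 lists of other polarity genes had values for 62 genes in cattle, of which 55 were tested. Limma, edgeR and DESeq2 called 0 of them, while 4 had an unadjusted p under 0.05 with limma (5 with edgeR and 5 with DESeq2), where 5.88% of all tested genes did with limma. Their median log2 fold change was -0.23, against 0.011 over all tested genes. The angiomotin-binding kinase gene LATS1 had 20.6 ± 10.3 normalized reads in edited and 34.8 ± 9.91 in control samples (SD, n = 6 each, log2 fold change -0.85 ± 0.33, adjusted p = 0.792). YAP1 had 81.3 ± 17.4 in edited and 115 ± 18.7 in control samples (-0.51 ± 0.19, adjusted p = 0.792). EZR had 4878 ± 1011 in edited and 3483 ± 666 in control samples (0.48 ± 0.17, adjusted p = 0.792). The myosin heavy chain gene MYH10 had 82.4 ± 25.7 in edited and 120 ± 26.5 in control samples (-0.58 ± 0.24, adjusted p = 0.792). The sign was that of the mouse gene for EZR (0.81) and MYH10 (-0.87) and the opposite one for LATS1 and YAP1. Neither of the latter passed in mouse, with Lats1 at 0.48 ± 0.41 (limma adjusted p = 0.475) and Yap1 at 0.14 ± 0.23 (0.733). Mouse Yap1 ranged from -0.17 to 0.45 with 1 library left out, so no opposite response is concluded. These 4 genes were chosen for their unadjusted p, with values known.

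Whether the response differed between the mouse morula and the bovine blastocyst was tested on the mouse minus the bovine log2 fold change, over 7073 genes tested under the same symbol, of which 6.07% differed at an adjusted p under 0.05. Of the 6 genes of interest tested in both, 1 differed, AMOTL2, with -4.70 in mouse and -0.73 in cattle. The difference, mouse minus bovine, was -3.97 ± 0.52 (SE, 95% interval -5.01 to -2.92, adjusted p = 8.90e-07 from both limma fits). PARD3 had 0.62 in mouse and -0.25 in cattle, a difference of 0.87 ± 0.32 that did not pass (adjusted p = 0.101). The differences of AMOT (-0.54 ± 0.43), AMOTL1 (1.03 ± 1.02), PRKCZ (-0.31 ± 0.29) and PRKCI (-0.13 ± 0.33) did not pass either. Species, stage, read depth and the residual transcript level of the edited gene differ together in this comparison and cannot be told apart. For AMOTL2 the reads differ too, with 450 over the 2 mouse and 123 over the 6 bovine control samples. Fold changes on the log2(value + 1) scale understate those of low genes. The edited mean was 13.7% of the control mean for Tead4 in mouse and 42.6% for TEAD4 in cattle. These are levels of RNA, and TEAD4 protein was not measured here.

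**Figure D5:**
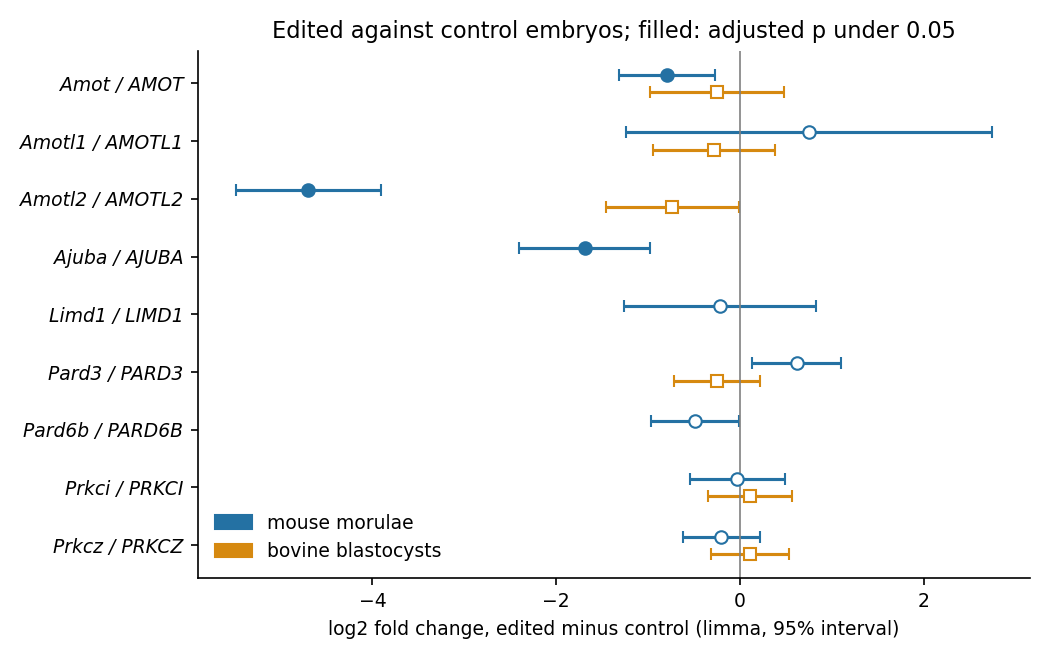
Log2 fold changes, edited minus control, with 95% intervals from limma, for each gene in mouse morulae (blue circles, n = 2 per group) and bovine blastocysts (orange squares, n = 6 per group); filled symbols passed an adjusted p of 0.05, and AJUBA, LIMD1 and PARD6B were below the filter in cattle. The interval of Amotl2 in mouse (-5.49 to -3.91) lies apart from that of AMOTL2 in cattle (-1.46 to -0.0083).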

How the data were processed

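Polyadenylated RNA was primed with oligo(dT) and sequenced by a Smart-seq2 procedure, per the labels' protocols. Trimmomatic, HISAT2, featureCounts and DESeq2 and the builds mm10 and ARS-UCD1.2 are named in the submitters' processing notes; versions, annotation, strand and multi-match settings are not given in the sources used here. The deposited signal values are gene read counts divided by a DESeq2 size factor, per the file headers and the values. Each value was a whole multiple of 1 read (tolerance 0.05 reads), which gave back 100% of values as reads. The authors' log2 fold changes, p-values and adjusted p-values were only quoted, and the deposited test statistic, treated as a score, was not used.

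Within each table log2(value + 1) was compared with limma 3.58.1 (trend, edited minus control, two-sided, no block) over genes whose mean reached 10 normalized reads, with Benjamini-Hochberg adjustment over all of them and a threshold of 0.05; fold changes on this scale understate those of low genes. Adjusted p-values are limma's, except where edgeR, DESeq2 or the authors' table is named. Differences between species used the summed squared standard errors of both fits with Satterthwaite degrees of freedom. Single bovine genes also had an exact permutation test over 924 splits, whose smallest p is 0.00216; 2 against 2 mouse samples cannot go below 0.333. Alternatives were pseudocounts of 0.5 and 5, no filter or a mean of at least 50, equal totals (with and without the most abundant feature), robust limma, edgeR 4.0.16 and DESeq2 1.42.0 on the recovered reads, a replicate block and leaving out each library. The limma and species-difference scripts were tested on simulated data. Intervals are 95% and floors of 3 reads cover counting error only. Mouse coordinates and exon lengths (all isoforms united) come from GENCODE M21, which matched 93.9% of tested mouse genes by symbol; bovine coordinates were not used here.

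The genes and lists were chosen with earlier results of these data known. Genes named are the 9, the edited gene, and up to 3 called genes per list with the largest change; others complete a count of 5 or fewer, describe a list or were picked with values known.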

Additional observations from a re-analysis of the deposited data

Results flagged for a closer look

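AMOTL2 was picked out because its response differed between the mouse morula and the bovine blastocyst by a test of the difference itself: the log2 fold changes, mouse minus bovine, were -3.97 apart (-4.70 in mouse and -0.73 in cattle). Stage, species, read depth and residual TEAD4 transcript level cannot be told apart in it. The gene also had few reads in cattle, 123 over the 6 control samples, against 450 over the 2 mouse control samples. In 20 bovine groups of 6 samples (the 9 genes and TEAD4), no sample stood apart from the others of its group by Dixon's criterion, where chance gives about 1 in 20.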

How the results depend on the processing

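Amotl2 (-5.18 to -4.22) and Ajuba (-2.05 to -1.33) kept direction and call under all 14 alternatives in mouse, and the count of genes differing between species stayed at 1 of 6 under its 3 alternatives. The mouse count of called genes, 1742 (788 higher and 954 lower), was 580 and 601 with control library 1 or 2 left out and 1374 and 2588 with edited library 1 or 2 left out (a lone sample was assumed to vary like the other group); equal totals gave 1110 higher and 682 lower, and 1276 and 610 with the most abundant feature left out of the total. The bovine count of 1 was 5 with DESeq2 and 1 whichever library was left out. TEAD4 in cattle passed only with DESeq2 (adjusted p = 0.00660). Among the 9 genes, signs turned for 3 mouse genes and 1 bovine gene, none of which passed. Amotl1 ranged from -0.89 to 2.40 with 1 library left out (untested without edited library 1, where it fell under the filter), Limd1 from -0.98 to 0.55 and Prkci from -0.43 to 0.37. Prkci was also 0.10 with equal totals, 0.15 with the most abundant feature left out of them, 0.040 with edgeR and 0.027 with DESeq2. PRKCI ranged from -0.0086 to 0.22 with 1 library left out. The cause was not tested. With the replicate number as a block, 1816 mouse genes and 1 bovine gene were called, and no call of the 9 genes changed. The numbers are not said to mark a shared batch. Deviations of same-numbered samples correlated at 0.11 in mouse, where 2 samples per group give both pairs the same value by construction. They correlated at -0.19 to 0.34 in the 6 bovine pairs, and 1 of 6 edited bovine samples correlated best with its own number. AJUBA, LIMD1 and PARD6B in cattle were under the filter on low values, with 0 to 20 reads per sample.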

Other observations

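Variation among bovine samples within groups was described for the 6 tested genes, with group means removed (n = 12 samples, 15 pairs). PRKCI and PRKCZ varied in opposite directions (Pearson r = -0.73, permutation p = 0.00626, adjusted p = 0.0836; Spearman rho = -0.78, permutation p = 0.00377, adjusted p = 0.0565), with r = -0.90 within the 6 edited and -0.60 within the 6 control samples and -0.67 without the 2 samples farthest from the median of PRKCI. AMOT and PARD3 varied together (r = 0.72, permutation p = 0.0111, adjusted p = 0.0836; rho = 0.73, permutation p = 0.00850, adjusted p = 0.0637), with r = 0.48 in edited and 0.89 in control samples and 0.51 without the 2 samples farthest from the median of AMOT. No pair passed the adjustment over the 15. The correlation with the share of reads taken by the ribosomal RNA gene RN18S1 was 0.63 for AMOT, 0.45 for PARD3, -0.34 for PRKCI and 0.17 for PRKCZ. That share ranged from 9.27% to 19.7% in edited and from 12.4% to 36.6% in control samples; its part in these relations was not tested.

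Among 2340 bovine genes whose mean reached 100 normalized reads, those whose within-group pattern over the 12 samples was most like that of a gene described here were, by Pearson r, LIG1 (0.89) and RALY (0.84) for AMOTL2, EIF4EBP2 (0.90) and WNK1 (0.88) for AMOT, and AARSD1 (0.85) and TMEM11 (0.84) for AMOTL1. For PARD3 they were UPF3B (0.94) and the ezrin-family gene MSN (0.93), for PRKCI KLHDC2 (0.88) and TMEM50A (0.85), and for PRKCZ PSME4 (0.85) and RNASEK (0.84). These values are the highest among all genes compared, over samples that share depth and composition, so no p is given.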
